A study of Mus musculus with 6 samples.

Results

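The 10 suppressive effector genes of myeloid-derived suppressor cells (MDSCs) were Arg1, Arg2, Nos2, Ptgs2, Cd274, Pdcd1lg2, Vegfa, Il4i1, Ido1 and Cybb, taken by name from 21951 annotated protein-coding genes. Every site of differential chromatin accessibility inside one of these genes or within 50 kb on either side was collected from 6 deposited lists, and 21 of the 11800 listed peaks qualified. A total of 4 genes, Ptgs2, Cd274, Pdcd1lg2 and Vegfa, had at least 1 such site, beside 35.6% of all protein-coding genes. The remaining 6 genes had none. MS-275, which the study used as an inhibitor of the histone deacetylases HDAC1, HDAC2 and HDAC3, gave 13 of the 21 peaks over vehicle. CXD101, used as an inhibitor of the same group, gave 0 gained peaks near any of the 10 genes. The whole gained lists held 8480 peaks for MS-275 and 284 for CXD101, near 28.3% and 1.55% of all protein-coding genes. These counts belong to the deposited lists, and the paper reports larger ones for both inhibitors over vehicle. At a share of 1.55%, 0 of 10 is no result about these genes.

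The cells were monocytic MDSCs with the surface profile CD11b+Ly-6Chi Ly-6G-, sorted from liver tumors of wild-type, young adult female C57BL/6J mice. All mice carried Hepa 1-6 cells, a mouse hepatoma line, transplanted into the liver, and were kept in the study for a high share of MDSCs in the blood. They received vehicle, MS-275 or CXD101 daily into the peritoneum, with both inhibitors at the same dose. Each of the 3 groups had 2 libraries, profiled by ATAC-seq, an assay that reads out open DNA by the cuts of a transposase carrying adapters. The tumors of every group grew from 1 cell line, which limits them as a model of liver cancer.

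MDSCs restrain T cells and NK cells through several routes. They deplete arginine by arginases, make nitric oxide and reactive oxygen species, oxidize tryptophan and phenylalanine, release prostaglandin E2 and VEGF, and display the ligands of the receptor PD-1. Histone deacetylases remove acetyl groups from histone tails, and acetylated chromatin is usually more open. The comparison asked where the chromatin around these effector genes opened or closed with each inhibitor.

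The peaks were called after pooling both libraries of a group, so each site has 1 value per group. Without values per library, replicate error is unknown for every difference given here. A gained peak is a site with more signal in the inhibitor group than in vehicle, and a lost peak is the reverse. The fold enrichment is the ratio of the first group to the second at the summit, and the −log10 p-value of the peak caller's Poisson test (larger means less likely by counting alone) ranks peaks within a list. The number of tags, the reads piled up at the summit, was solved from the fold enrichment and its p-value and is given at the depth of the shallower group. The level of the second group is the highest of several local averages and is an upper estimate. Intervals in brackets are exact 95% Poisson intervals of the tags of the first group and cover counting error only. The pooled MS-275 and CXD101 groups were each 1.14 times as deep as vehicle. Absolute depth was not used here.

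Among the 10 genes, 4 had an MS-275 gained peak, beside 28.3% of all protein-coding genes. MS-275 lost peaks occurred near 1 gene, beside 5.06% of all genes. CXD101 gained peaks occurred near 0 genes, beside 1.55%, and CXD101 lost peaks near 1 gene, beside 6.29%. The direct list of MS-275 over CXD101 reached 3 genes, beside 10.9%, and the reverse list reached 0, beside 0.0182%. Cd274 was among the 3 only through a site inside Pdcd1lg2. When a peak counted only for the coding gene with the nearest start, the direct list reached 2 genes. At a background of 1.55%, 0 of 10 is no result about these genes. Promoter peaks, which overlap the 5 kb upstream of a start site, occurred with MS-275 over vehicle in 1 member, beside 5.91% of all genes, and in the direct list in 1, beside 1.54%. The other promoter counts were 0 for MS-275 lost (0.528%), CXD101 gained (0.241%) and CXD101 lost peaks (0.724%). Inside the gene body, 3 members had an MS-275 gained peak, beside 9.99% of all genes, and 1 had a direct peak, beside 2.9%. The windows of the 10 genes held 10.9 MS-275 gained peaks per Mb, against 4.32 per Mb over the windows of all genes. The 6 peaks of Vegfa and the 5 of Pdcd1lg2 made up most of this density, and the counts over 10 genes are a description only.

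**Figure D1:**
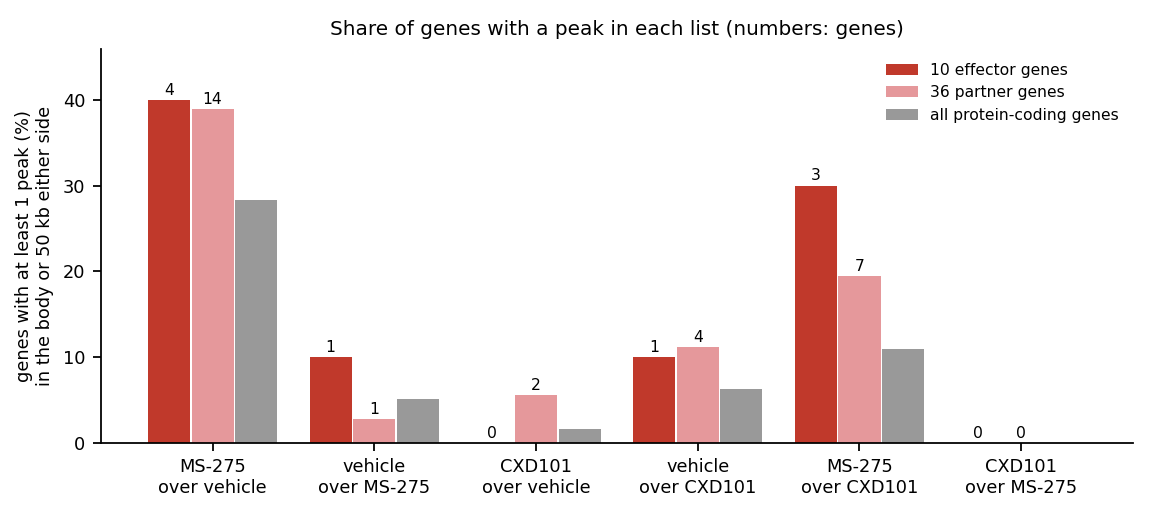
Share of genes, in percent, with at least 1 peak in the gene body or within 50 kb, for each of the 6 lists; red bars are the 10 effector genes, pink bars the 36 partner genes of the same pathways and grey bars all 21951 protein-coding genes, and the numbers above bars count genes. MS-275 over vehicle reached 4 effector genes (background 28.3%) and CXD101 over vehicle reached 0 (background 1.55%).

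The first role is the use of arginine. Arg1 and Arg2, the cytosolic and mitochondrial arginases, had no peak in any list. Arg1 (ENSMUSG00000019987.9) lies on the minus strand at chr10:24915221-24927484 of mm10, and its nearest MS-275 gained peak was 202.8 kb away, next to Enpp1. Arg2 (ENSMUSG00000021125.6) lies on the plus strand at chr12:79130777-79156301, with the nearest MS-275 gained peak 195.8 kb away, next to Rad51b. Nos2 (ENSMUSG00000020826.8, chr11:78920787-78960254, plus strand), the inducible nitric oxide synthase, was 326.1 kb from the nearest MS-275 gained peak. The site nearest to Nos2 in any list was an MS-275 lost peak 85.2 kb downstream of the gene, close to Ksr1, with a fold enrichment of 3.39.

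The same held for the enzymes that oxidize amino acids and for the oxidase subunit. Il4i1 (ENSMUSG00000074141.13, chr7:44816387-44840809, plus strand) encodes a secreted oxidase of phenylalanine and shares its first part with the gene Nup62. An MS-275 lost peak with a fold enrichment of 2.90 and a CXD101 lost peak of 3.23 lay 67.7 kb downstream of it, near Ap2a1 and beyond the 50 kb limit. Ido1 (ENSMUSG00000031551.12, chr8:24584136-24597009, minus strand), which starts tryptophan breakdown along the kynurenine pathway, was 499.7 kb from the nearest MS-275 gained peak. Cybb (ENSMUSG00000015340.10, chrX:9435252-9487771, minus strand), the catalytic subunit of the phagocyte NADPH oxidase, was 2641 kb from it. The lists hold differences only, so these 6 genes may be open or closed in all groups, and a change below the limit of the lists would not appear. At the median vehicle level of the MS-275 gained list, 15.8 tags, a fold enrichment of 1.99 was needed for a call. At the lowest vehicle level of that list, 5.84 tags, it was 2.58.

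Ptgs2 encodes cyclooxygenase 2, the inducible enzyme that commits arachidonic acid to prostaglandins. The gene (ENSMUSG00000032487.8) lies at chr1:150100031-150108227 on the plus strand, and no other protein-coding gene lies within its window. It had 2 MS-275 gained peaks, both intergenic and upstream. The stronger, with its summit 31.6 kb upstream of the gene start, had 34.1 MS-275 tags [24.2 to 46.6] over a vehicle level of 7.0, a fold enrichment of 4.39 (−log10 p of 13.4). That fold enrichment was higher than that of 93.4% of the MS-275 gained peaks, and it was the highest of the 13 gained peaks near the effector genes. The weaker, 37.2 kb upstream at chr1:150062629-150062862, had 26.2 tags [17.7 to 37.4] over 10.0, a fold enrichment of 2.48 (−log10 p of 5.19). Neither site was in a CXD101 list or in the direct lists. The stronger peak is printed as the one with the higher −log10 p-value. It is given as the plus strand of mm10, 5′ to 3′, with bases that the assembly masks as repeats or low complexity in capitals. These made up 55.8% of the peak.
chr1:150068285-150068510: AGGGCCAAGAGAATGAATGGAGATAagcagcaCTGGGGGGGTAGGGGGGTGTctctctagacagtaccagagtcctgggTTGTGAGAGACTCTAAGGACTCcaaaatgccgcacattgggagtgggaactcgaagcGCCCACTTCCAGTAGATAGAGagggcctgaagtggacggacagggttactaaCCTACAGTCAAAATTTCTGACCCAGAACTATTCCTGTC

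Cd274 and Pdcd1lg2 encode PD-L1 and PD-L2, the ligands of the inhibitory receptor PD-1 on T cells. They are neighbors on chromosome 19, both on the plus strand, with Cd274 (ENSMUSG00000016496.7) at chr19:29367455-29388095 and Pdcd1lg2 (ENSMUSG00000016498.10) at chr19:29410919-29471161. Their windows overlap, and 3 peaks count for both genes. The window of Pdcd1lg2 held 12 of the 21 peaks near the effector genes, and it was the only one of the 10 windows with lost peaks as well as gained ones.

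In Cd274, the MS-275 gained list held 1 interval of 681 bp in an intron, chr19:29369908-29370588, with 2 summits. The summit 3019 bp from the gene start had 46.3 MS-275 tags [34.7 to 60.6] over a vehicle level of 11.6, a fold enrichment of 3.76 (−log10 p of 14.3). The summit 2643 bp from the start had 34.1 tags [24.2 to 46.6] over 14.0, a fold enrichment of 2.34 (−log10 p of 5.77). The second summit was weak within its list, with a higher fold enrichment than 22.5% of the peaks. The annotated promoter of Cd274 held no peak in any list. The stronger summit is shown with 100 bp on either side, as the plus strand with masked bases in capitals.
chr19:29370374-29370574: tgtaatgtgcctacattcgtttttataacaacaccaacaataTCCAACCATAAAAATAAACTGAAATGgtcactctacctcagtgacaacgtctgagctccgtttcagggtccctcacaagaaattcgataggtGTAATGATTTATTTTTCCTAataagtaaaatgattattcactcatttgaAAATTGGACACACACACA

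In Pdcd1lg2, an MS-275 gained peak lay in an intron, with its summit 53.1 kb from the gene start. It had 103 MS-275 tags [85.4 to 124] over a vehicle level of 27.4, a fold enrichment of 3.67 (−log10 p of 28.3). This p-value was lower than that of 98.3% of the MS-275 gained peaks and the lowest of the 13 near the effector genes. A peak of the direct list, chr19:29463905-29464115, overlapped the same site, with 111 MS-275 tags [91.7 to 134] over a CXD101 level of 42.2, a fold enrichment of 2.60 (−log10 p of 18.4). At the depth of vehicle, the direct summit corresponded to 97.9 MS-275 tags and a CXD101 level of 37.1, beside the vehicle level of 27.4. MS-275 therefore stood above both other groups at this site, and the MS-275 libraries are the same in both lists. Masked repeat bases made up 75.2% of the peak, and how uniquely reads map there was not tested. It was the 1 gained site that was also called between the inhibitors. The sequence is printed with masked bases in capitals.
chr19:29463903-29464136: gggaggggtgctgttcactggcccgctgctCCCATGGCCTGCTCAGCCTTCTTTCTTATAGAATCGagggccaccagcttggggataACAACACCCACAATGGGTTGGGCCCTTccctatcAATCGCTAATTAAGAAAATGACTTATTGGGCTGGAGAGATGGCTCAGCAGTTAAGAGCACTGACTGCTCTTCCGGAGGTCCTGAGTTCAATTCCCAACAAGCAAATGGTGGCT

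Past the end of Pdcd1lg2 the listed sites lay in A930007I19Rik, a noncoding RNA gene on the opposite strand. MS-275 gained peaks had summits 86.3 kb and 88.1 kb from the start of Pdcd1lg2. The first, chr19:29497134-29497346, had 66.5 tags [52.4 to 83.2] over 16.8, a fold enrichment of 3.79 (−log10 p of 19.6). The second, chr19:29498862-29499082, had 44.6 tags [33.2 to 58.6] over 13.2, a fold enrichment of 3.21 (−log10 p of 11.2). The nearest start of a coding gene was that of Ric1, 25.1 kb and 23.3 kb away, so these sites are near Pdcd1lg2 by the window only.

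Further on, 1 site was lower with both inhibitors. In vehicle it had 44 tags [32.0 to 59.1]. The MS-275 level was 6.47, with a fold enrichment of vehicle over MS-275 of 6.02 (−log10 p of 22.3). The CXD101 level was 7.21, with a fold enrichment of 5.48 (−log10 p of 20.5). Both summits were at the same base, 98.98 kb from the start of Pdcd1lg2 and 38.6 kb past its end, in an intron of A930007I19Rik and 12.4 kb from the start of Ric1. The fold enrichment was higher than that of 98.1% of the MS-275 lost peaks and of 98.99% of the CXD101 lost peaks. Both lists rest on the same vehicle libraries, so the 2 calls are not independent. A further CXD101 lost peak at chr19:29510126-29510334, in an exon of A930007I19Rik, had 41 vehicle tags [29.4 to 55.6] over 8.79, a fold enrichment of 4.29 (−log10 p of 15.2). The shared lost site, printed below, was the only site near the effector genes that was in both lost lists. It holds no masked base, so no capital appears.
chr19:29509749-29509970: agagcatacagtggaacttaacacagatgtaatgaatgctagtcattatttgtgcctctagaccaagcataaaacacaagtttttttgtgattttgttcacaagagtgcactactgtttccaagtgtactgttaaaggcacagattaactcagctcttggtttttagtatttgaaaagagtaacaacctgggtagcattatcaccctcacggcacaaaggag

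The direct list gave 3 more sites in the window of Pdcd1lg2 that were in no list against vehicle. One lay in an intron of the gene, 9003 bp from its start and 2137 bp upstream of an internal transcription start site, which makes it a promoter peak by the 5 kb rule. It had 66.6 MS-275 tags [51.6 to 84.6] over a CXD101 level of 25.4, a fold enrichment of 2.56 (−log10 p of 11.3). The site 14.4 kb past the gene, chr19:29485537-29485741, had 63.6 tags [49.0 to 81.3] over 21.8 and a fold enrichment of 2.83. The site 6.26 kb past the gene, chr19:29477425-29477624, had 22.9 tags [14.5 to 34.3] over 8.40 and a fold enrichment of 2.54, with a −log10 p-value of 4.62, among the weakest of the list. For both sites past the gene, the nearest coding start was that of Ric1. The vehicle level at these 3 sites was not given by any list. The first, the only direct difference in a promoter of a member, is printed with masked bases in capitals as the direct peak in the window of Cd274.
chr19:29419825-29420025: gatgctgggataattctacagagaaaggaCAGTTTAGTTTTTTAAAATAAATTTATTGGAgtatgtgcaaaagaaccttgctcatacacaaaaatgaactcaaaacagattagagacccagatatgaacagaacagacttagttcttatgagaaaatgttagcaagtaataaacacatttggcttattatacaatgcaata

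**Figure D2:**
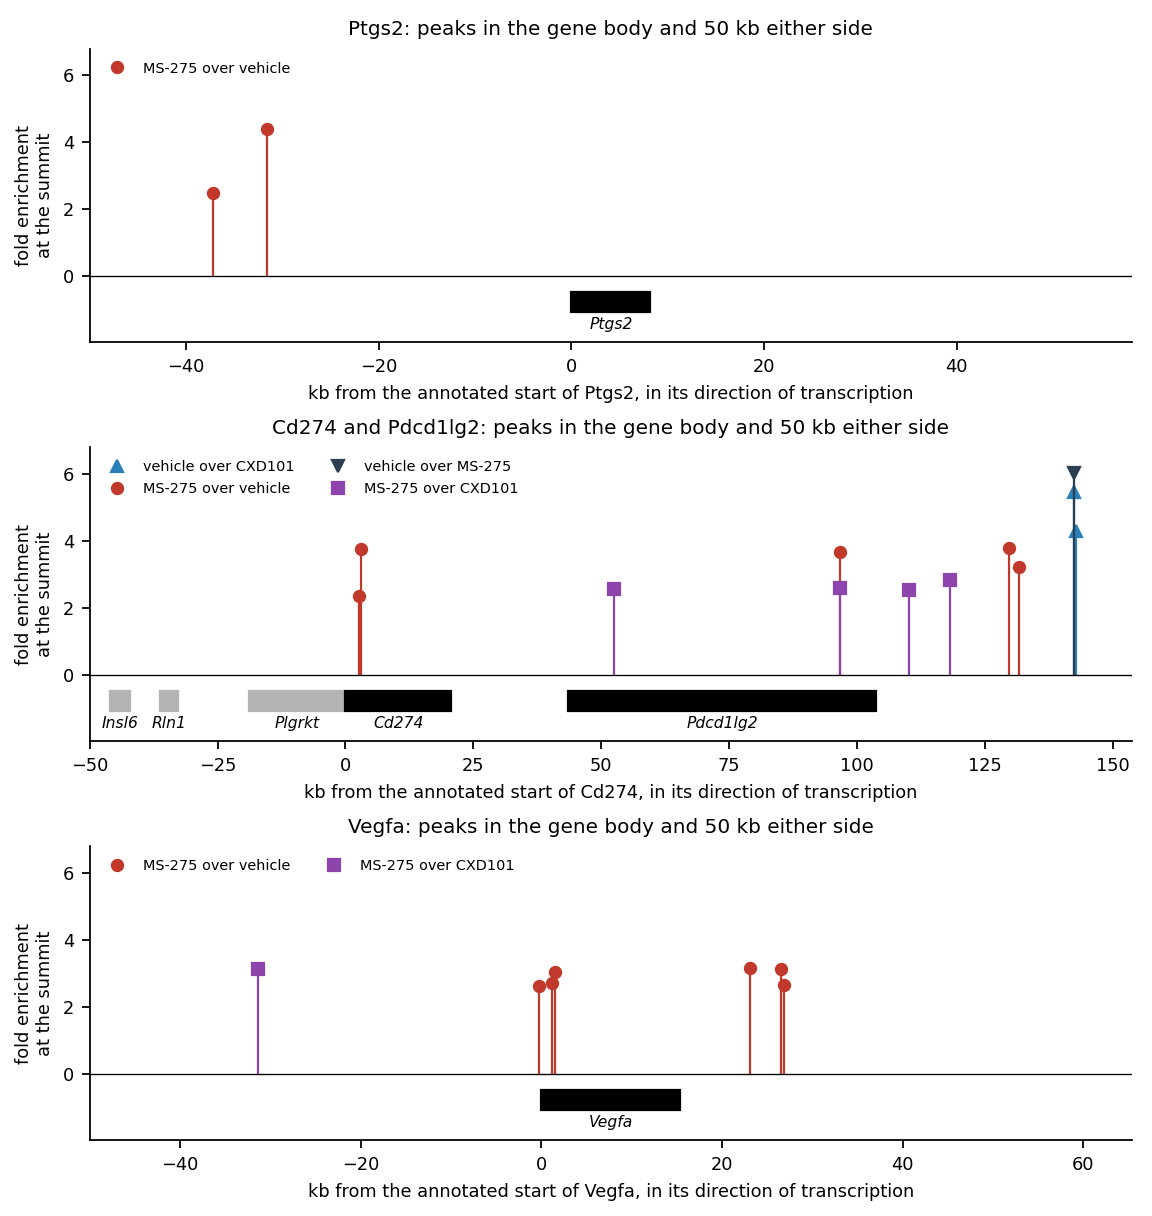
Positions of the peaks around Ptgs2, Cd274 with Pdcd1lg2, and Vegfa; the horizontal axis is the distance in kb from the annotated gene start in the direction of transcription, the height of each stem is the fold enrichment at the summit, colors and symbols mark the list, black boxes are effector genes and grey boxes other protein-coding genes. The lost peaks, with fold enrichments of 6.02, 5.48 and 4.29, stand together at the far end of the Pdcd1lg2 window, and the 6 MS-275 gained peaks of Vegfa stand at the gene start and past the gene end.

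Vegfa encodes the main angiogenic factor of tumors and is made by many cell types under low oxygen. The gene (ENSMUSG00000023951.17) lies at chr17:46016993-46032369 on the minus strand, with no other protein-coding gene in its window. It had 6 MS-275 gained peaks, the most of any member, in a group of 3 around the gene start and a group of 3 past the gene end. It was the only member with an MS-275 gained peak in its promoter.

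The promoter peak, chr17:46032524-46032750, had its summit 274 bp upstream of the gene start, with 108 MS-275 tags [89.4 to 128] over a vehicle level of 40.2. Its fold enrichment was 2.63 and its −log10 p-value 18.1. The vehicle level, an upper estimate, was the highest of the 13 gained sites near effector genes. Inside the gene, the peak with its summit 1522 bp from the start, chr17:46030734-46030949, had 73.4 tags [58.6 to 90.9] over 23.4 and a fold enrichment of 3.05. The peak 1154 bp from the start, chr17:46031121-46031336, had 59.5 tags [46.2 to 75.4] over 21.4 and a fold enrichment of 2.70, and its summit was 141 bp from an alternative start site. These 2 summits were in an intron and were rich in G and C, at 68.2% and 74.1% of 201 bp, beside a median of 49.8% over the MS-275 gained list.

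Past the gene end, the peaks lay in intergenic sequence. The farthest, chr17:46005337-46005551, had 83.9 tags [68.0 to 103] over 31.0 and a fold enrichment of 2.65. Its neighbor, chr17:46005736-46005936, had 72.6 tags [57.8 to 90.0] over 22.6 and a fold enrichment of 3.12. The nearest, chr17:46009182-46009382, had the fewest tags of the 6, 33.2 [23.5 to 45.6] over 9.88, and the lowest −log10 p-value, 8.80. Its fold enrichment, 3.15, was the highest of the 6. All 6 fold enrichments of Vegfa thus fell between 2.63 and 3.15, although the tags ranged from 33.2 to 108. None of the 6 sites was in a CXD101 list or in the direct list. The direct list had a separate site 31.3 kb upstream, with 22.9 MS-275 tags [14.5 to 34.3] over a CXD101 level of 6.64, a fold enrichment of 3.12 (−log10 p of 6.25).

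Of 7 sequence patterns searched on both strands within 100 bp of each summit, 1 occurred near the members. The patterns were TGANTCA for AP-1, TTGCNNAA for C/EBP, GAGGAAGT for PU.1, TTCNNNGAA for STAT and ACGTG for HIF-1, with the longer consensus elements of IRF and NF-kB. ACGTG, the core of the element through which the hypoxia factor HIF-1 binds DNA, was in 1 of the 13 MS-275 gained summits of the members and in 10.4% of all MS-275 gained summits. The other patterns were in 0 of the 13, and over the whole list they were in between 0.177% (NF-kB) and 9.02% (C/EBP) of summits. None of the 7 was found at the summits of the lost or direct peaks of the members. No pattern contains another, and a match is a description of letters only. The peaks at the Vegfa promoter and upstream site follow with masked bases in capitals. The third sequence is the peak with the 2 ACGTG matches, 78 bp before and 13 bp after its summit, and there the capitals mark the matches, which read CACGT on the plus strand.
Promoter, chr17:46032524-46032750: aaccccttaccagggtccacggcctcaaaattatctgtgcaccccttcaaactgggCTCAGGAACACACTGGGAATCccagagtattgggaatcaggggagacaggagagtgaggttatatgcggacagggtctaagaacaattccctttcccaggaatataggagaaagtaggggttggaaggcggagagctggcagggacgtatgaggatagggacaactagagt
Upstream direct site, chr17:46063571-46063840: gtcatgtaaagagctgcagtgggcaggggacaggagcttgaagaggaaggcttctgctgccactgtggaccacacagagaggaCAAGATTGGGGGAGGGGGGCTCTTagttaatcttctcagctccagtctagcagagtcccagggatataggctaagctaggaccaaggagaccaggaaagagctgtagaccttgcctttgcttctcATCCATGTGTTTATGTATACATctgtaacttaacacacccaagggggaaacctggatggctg
Gene start, chr17:46031121-46031336: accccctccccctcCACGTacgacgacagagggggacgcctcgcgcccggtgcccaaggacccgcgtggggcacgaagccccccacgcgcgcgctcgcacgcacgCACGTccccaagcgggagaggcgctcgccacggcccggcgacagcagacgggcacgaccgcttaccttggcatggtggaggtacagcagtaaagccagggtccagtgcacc

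**Figure D3:**
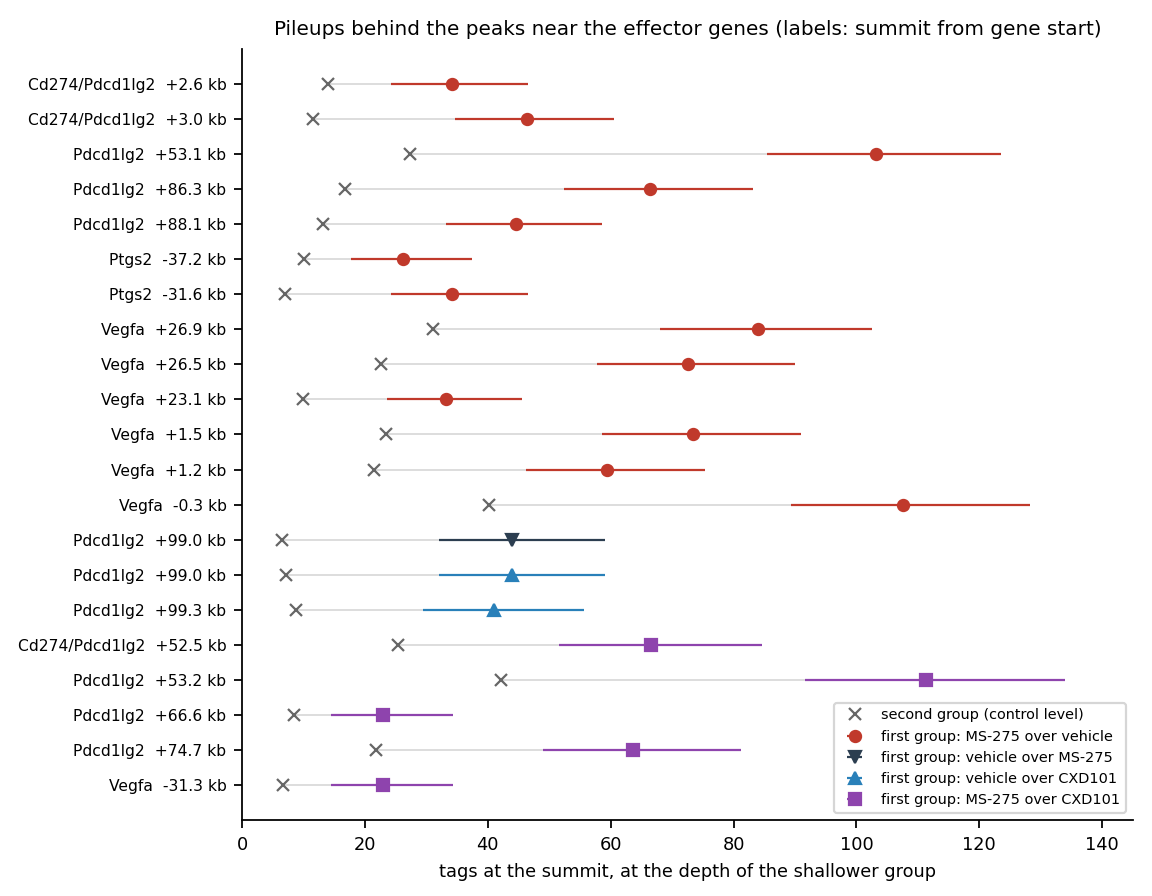
Tags at the summit of each of the 21 peaks near the effector genes, at the depth of the shallower group; colored symbols are the first group named in the list with an exact 95% Poisson interval, and crosses are the level of the second group, an upper estimate. Labels give the distance of the summit from the gene start in kb, from the start of Cd274 where both genes are named. The peaks were called on these same tags and levels, so the gap between symbol and cross is a description. The 44 vehicle tags over 6.47 at the shared lost site have the largest fold enrichment of the 21, 6.02.

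Across the 13 MS-275 gained peaks of the members, the median fold enrichment was 3.12, beside 2.88 for the whole list, and 8 of 13 lay above that list median. The median −log10 p-value was 14.3, beside 10.3, with 10 of 13 above. For 11 of the 13 the nearest start of a coding gene was that of the member. Masked repeat bases occurred within 100 bp of 9 of the 13 summits, beside 60.3% of all MS-275 gained summits. They made up more than 50% of that stretch at 3 of the 13, beside 8.64%. In the direct list, the 5 peaks of the members had a median fold enrichment of 2.60, beside 2.39, and all 5 were above the list median. By −log10 p-value, 3 of the 5 were above it. A call at the lowest CXD101 level of the list, 6.64, needed a fold enrichment of 2.60, already above the median of 2.39. The direct site of Vegfa lay at that level, so its place above the median fold enrichment was set by the limit of the list.

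**Figure D4:**
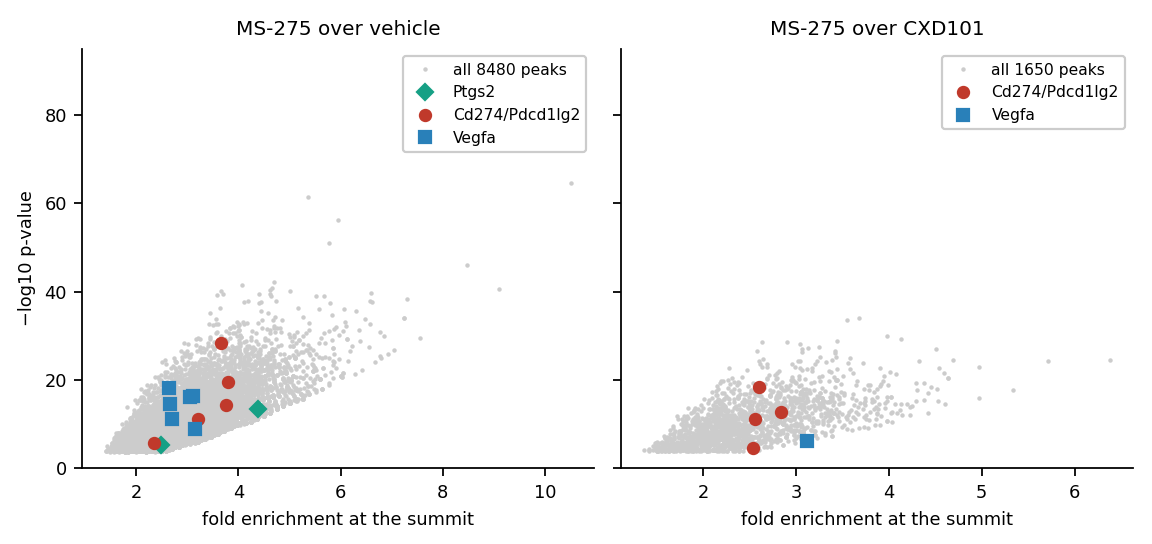
Fold enrichment at the summit (horizontal) against −log10 p-value (vertical) for every peak of MS-275 over vehicle (left, 8480 peaks) and of MS-275 over CXD101 (right, 1650 peaks), in grey, with the peaks near Ptgs2, Cd274 or Pdcd1lg2, and Vegfa in color. The intronic Pdcd1lg2 site stands highest among the members on the left, with a −log10 p-value of 28.3, and the stronger Ptgs2 site farthest right, at a fold enrichment of 4.39.

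CXD101 was called over vehicle at 0 of the 13 MS-275 gained sites. At their vehicle levels it would have needed a fold enrichment between 1.69 and 2.65 to be called, at the p-value where the CXD101 gained list ends, so smaller gains would not be listed. The inhibitors themselves were compared in the direct list, where MS-275 was called above CXD101 at 1 of the 13, the intronic site of Pdcd1lg2. At the other 12 the direct list has no entry, and the CXD101 level there was not given. The limit of that list was a fold enrichment of 1.77 at its median CXD101 level of 25.9 and 2.60 at its lowest level of 6.64, and differences below the limit would go uncalled. So at 12 of the 13 sites CXD101 was called different neither from vehicle nor from MS-275, which does not show that it matched either. The reverse list, CXD101 over MS-275, held 2 peaks in all and none near these genes.

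Of the 36 partner genes of the same pathways, 14 had an MS-275 gained peak (38.9%, beside 28.3% of all genes). An MS-275 lost peak was near 1 (2.78%, beside 5.06%). CXD101 gained peaks were near 2 (5.56%, beside 1.55%) and CXD101 lost peaks near 4 (11.1%, beside 6.29%). The direct list reached 7 (19.4%, beside 10.9%). The counts of each small group below stand beside these same shares of all genes and are a description only. For arginine and nitric oxide, 2 of 6 genes had an MS-275 gained peak, and the strongest counted for the arginine transporter Slc7a2, with a fold enrichment of 3.78, although its nearest coding start was that of Pdgfrl. In the direct list the urea cycle gene Asl was reached, at 1.81, inside Gusb.

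Of the 5 partners of Cybb in the NADPH oxidase, 3 had an MS-275 gained peak. At the promoter of Rac2, the small GTPase of the complex, 136 MS-275 tags stood over a vehicle level of 48.8, with a fold enrichment of 2.76 (−log10 p of 24.4). Rac2 was also in the direct list at its promoter, with a fold enrichment of 2.24. Ncf4, which encodes the p40phox subunit, had the only CXD101 lost peak of the group, with a fold enrichment of 1.70.

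In prostaglandin synthesis, 3 of 5 partners had MS-275 gained peaks. Ptgs1, the constitutive cyclooxygenase, had 131 tags over 47.6 in an intron, a fold enrichment of 2.72, and a direct peak of 1.68 upstream. Among checkpoint genes 2 of 6 had MS-275 gained peaks. Vsir, which encodes VISTA, had peaks in 4 lists, whose top fold enrichments were 2.11 (MS-275 gained), 2.59 (MS-275 lost), 2.17 (CXD101 lost) and 1.69 (direct). All 4 lay in introns of Cdh23, the gene in which Vsir is nested, so the gene to which they belong is uncertain.

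The VEGF system had MS-275 gained peaks in 2 of 6 genes, Flt1 and Nrp1. It was the only partner group with CXD101 gained peaks, in the same 2 genes, beside 1.55% of all genes. The Nrp1 peak, in an intron, had a fold enrichment of 2.15 (−log10 p of 5.19). At a q-value of at most 0.01, 1 partner gene with a CXD101 gained peak was left. Flt1, the receptor VEGFR1, had 53.6 CXD101 tags over a vehicle level of 23.0 near its start, a fold enrichment of 2.28. With MS-275 it had 68.2 tags over 20.4 at a nearby summit, a fold enrichment of 3.23, and the direct list gave 1.86 close by. CXD101 lost peaks were near 2 of the 6 genes, Kdr and Vegfb. Kdr, the receptor VEGFR2, had one 11.9 kb upstream with 36 vehicle tags over 5.84, a fold enrichment of 5.41. That CXD101 level was the lowest of the whole list and is an upper estimate. The peak of Vegfb, in an intron of Plcb3, had a fold enrichment of 1.86. Of tryptophan and cystine genes, 2 of 6 had MS-275 gained peaks, led by Slc3a2, the heavy chain of the cystine transporter, at 3.48. It was at 3.51 in the direct list, although those sites lay 60.7 kb and 59.8 kb from its start and nearest to Chrm1. Neither suppressive cytokine gene, Il10 or Tgfb1, had a peak against vehicle. Tgfb1 had a direct promoter peak with 157 MS-275 tags over 67.4, a fold enrichment of 2.31 (−log10 p of 20.4), inside an intron of B9d2.

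Since the lists hold differences only, the cell type could not be checked from the level of its markers. Of 7 genes listed for monocytic MDSCs, 5 had an MS-275 gained peak, beside 28.3% of all genes. That list held Ly6g, which the sort selected against and which also stood among the neutrophil genes, and without it the count was 4 of 6. MS-275 gained peaks were also near 5 of 5 neutrophil genes, 2 of 3 T cell genes, 1 of 4 macrophage, 1 of 3 dendritic cell, 1 of 3 B cell, 1 of 3 hepatocyte and 0 of 2 NK cell genes. Some of these genes are neighbors that share peaks. S100a8 and S100a9 had the same top MS-275 gained peak, and so did Ly6g and Ly6c2, so the counts exceed the number of separate sites. The top peaks counted for Cd3e and Cd4 lay 31.9 kb and 31.4 kb from their starts, in introns of other genes. With so few genes in each class, these counts are a description only. CXD101 gained peaks occurred near 1 of the 29 marker genes, beside 1.55% of all genes, and direct peaks near 8, beside 10.9%. Among these genes the largest fold enrichment of MS-275 over vehicle was 10.5, with 93.6 tags over 8.0, near Vsig4, a macrophage receptor. That summit was intergenic, 70.1 kb from the start of Vsig4. The site was also gained with CXD101 (fold enrichment of 4.89) and was in the direct list (2.85). The other macrophage genes did not follow. Mertk had a promoter peak lost with MS-275 (2.58) and with CXD101 (2.90), and Adgre1 and C1qa had no peak in any list. Cells of another type in the sort would add their open sites, and their part in the results was not tested. A pileup from pooled cells cannot tell more cells with an open site from a more open site per cell.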

How the data were processed

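ATAC-seq libraries of 3 groups (Vehicle, MS275 and CXD101 by the treatment label, 2 libraries each) were compared through 6 peak lists. The authors aligned reads to mm10 with Bowtie2 and compared pooled groups with MACS2 2.2.7.1, each list setting 1 group over another. The deposited values used were the fold enrichment, a linear ratio with a pseudocount of 1, and the −log10 p-value and −log10 q-value. The deposited display score was not used. No peak had a q-value above 0.05. The paper states a p-value limit that these lists do not follow, since the gained lists end at −log10 p-values of 3.79 (MS-275) and 4.50 (CXD101). It also reports more peaks for each inhibitor over vehicle, so the counts here are not those of the paper. The methods give a shift of 0 for reads, so summits can be displaced from the transposase cut. How far was not tested, and distances measured from a summit are approximate. Depth per library was not used here.

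Treated tags and control levels were solved from fold enrichment and p-value (all 11800 peaks, tolerance 0.0005 on −log10 p, 35 with more than 1 solution, none near the 10 genes). The solution was tested on simulated peaks with known answers. Genes came from GENCODE M21. A promoter is the 5 kb upstream of any start site, and shared peaks overlap by at least 1 base. Sequence and masking came from GRCm38. Every effector gene is named with all its peaks when there are 6 or fewer in a list. For partner genes, the MS-275 gained count of each group is given, with counts of other lists for some groups. Named partner genes are mostly those that held the most significant peak of a list. A sequence is printed for up to 1 peak per gene and list, the one with the highest −log10 p-value in the promoter or gene body, otherwise within 50 kb. The Vegfa peak with ACGTG was added after its match was seen. The genes, lists and patterns were chosen with earlier results of these data known. No test over genes was run. Computations used Python 3.11.15, numpy 2.4.6, pandas 2.3.3, scipy 1.17.1 and matplotlib 3.10.9.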

Additional observations from a re-analysis of the deposited data

Results flagged for a closer look

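The 5 direct peaks near the effector genes stand out because the direct list of MS-275 over CXD101 holds them. That list is a Poisson test on pooled reads, which covers counting error only. Their fold enrichments were 2.56, 2.6, 2.54 and 2.83 in and past Pdcd1lg2 (the first also within the window of Cd274) and 3.12 upstream of Vegfa. Of these, the site at 2.6 is the 1 that was also gained over vehicle. The vehicle level at the other 4 was not given, the site at 2.54 had a −log10 p-value of 4.62, and none of the differences was set against replicate spread.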

How the results depend on the processing

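Of 154 alternatives to the counts and medians of the effector and partner genes, 123 stayed within 1.5 times the main count or within the counting interval of the median fold enrichment, and 31 moved. With 10 kb on either side of the gene body, the MS-275 gained peaks of the effector genes fell from 13 to 7 (partner genes from 14 to 8), the genes and peaks in both lost lists to 0 and 0, the MS-275 lost partner genes to 0, the CXD101 lost partner genes from 4 to 2, and the direct list to 1 gene, 3 peaks and 4 partner genes. With 100 kb, MS-275 lost peaks reached 3 effector genes (4 peaks) and 3 partner genes, CXD101 lost peaks 2 effector and 7 partner genes, and direct peaks 11 partner genes. When a peak counted only for the coding gene with the nearest start, MS-275 gained partner genes came to 9, both lost lists had 0 effector genes and 0 peaks, MS-275 lost partner genes were 0, CXD101 lost 2, and the direct list had 3 peaks and 3 partner genes. A q-value of at most 0.01 or 0.001 left 1 CXD101 gained partner gene. A fold enrichment of at least 2 left 2 CXD101 lost and 3 direct partner genes. With promoters taken as 1 kb on either side of a start, the direct promoter peak of Pdcd1lg2 was not counted (0 genes). The 4 effector genes with MS-275 gained peaks and the 0 with CXD101 gained peaks stayed at 3 to 4 and at 0 under all of these settings. A count of 0 cannot rise with a narrower window, a stricter q-value or a higher fold enrichment, so those settings were no check on it. No paired analysis was possible because the peak calls pool both libraries of each group, and for the same reason no replicate could be left out. At the lowest vehicle level, 5.84 tags, a call needed a fold enrichment of 2.58 in the MS-275 gained list, which ends at a −log10 p-value of 3.79, and of 2.85 in the CXD101 gained list, which ends at 4.50.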
